A study of Mus musculus with 30 samples.

Results

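The 4 group 13 Hox genes, Hoxa13, Hoxb13, Hoxc13 and Hoxd13, were followed across mouse embryonic stem cells (ESCs) as they were taken towards neuromesodermal progenitors (NMPs), the bipotent cells of the tail end that supply spinal cord and mesoderm. Members were taken by name, as the paralogue group 13 rows of a count table of 54134 genes that holds 39 Hox genes in all. RNAseq libraries came from 30 samples of the Bruce4 ESC line, 3 for each of 5 stages in each of 2 genotypes. Cells were either wildtype or Nr6a1-/-, the latter being 1 clone with CRISPR/Cas9 deletions in an internal exon on both alleles of the orphan nuclear receptor gene Nr6a1, so that genotype and clone cannot be told apart. All cells received FGF2 from the start. The stages were d2, taken before Wnt activation, d2.5 and d3, taken 12 h and 24 h after the Wnt agonist CHIR99021 was added, d4 without Gdf11, and d4G, a further d4 sample that had Gdf11 for its last 24 h.

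Hox genes lie in 4 clusters and are switched on in sequence, from the lowest-numbered group at the anterior end of each cluster to group 13 at its posterior end. Group 13 proteins are the last to appear in the tail bud, where they are known for slowing axial elongation and opposing the action of more anterior Hox proteins. Gdf11 is a TGFβ family ligand that signals through activin type II receptors, the type I receptors Acvr1b and Tgfbr1, and Smad2 and Smad3, and in the embryo it marks the passage from trunk to tail.

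Library totals ranged from 1570714 to 3688197 counts with a median of 2366002, and a gene without a count could still have a level of 0.813 to 1.91 CPM (the count scaled to a common library size), 3 counts being the limit. Nr6a1 counts came from the 3′ end and do not check the genotype, since the deleted exon is internal. At d3 its level was 176 ± 9.52 CPM in wildtype cells against 285 ± 28.9 CPM in the mutant clone, and at d4G 17.9 ± 0.962 against 28.4 ± 9.44 CPM (mean ± SD, n = 3, here and throughout). Of the d4 libraries, 1 of each genotype stood apart. The departure of d4 wildtype replicate 2 from the other libraries of its group leaned towards d2 wildtype with a slope of 0.224, against -0.0472 and -0.0523 for the other two and 0.0194 to 0.171 for libraries of other groups. Without it the Hoxb13 difference between genotypes at d4 was 5.18 on the log2 scale and the wildtype Gdf11 response of Hoxd13 4.17 (4.94 and 4.29 with it), and calls that it ended are named below. The d4 Nr6a1-/- replicate 1 differed from the others of its group by a chi-square per gene of 6.38 and 7.59, where pairs of other groups reached at most 5.25, and had the lowest TMM factor (0.909). Without it the d4 difference of Hoxb13 was 5.01 and that of Hoxd13 2.29 (FDR = 0.0537), the Nr6a1-/- responses to Gdf11 were 2.67, 4.96 and 5.18 for Hoxb13, Hoxc13 and Hoxd13, and the difference in response was 3.73 for Hoxb13 and 3.95 for Hoxc13. Per the study's methods, libraries were pooled after an index was added at priming. The labels give all 6 d4 libraries an index that also marks a library of d4G (4 of them) or d3 (2), while the other 24 libraries have 24 different ones. If samples were pooled as described, those d4 libraries were in another pool than the libraries that share their index. The labels name no pool, and Gdf11 responses and d3 to d4 steps cannot be told apart from a difference between pools. NMP markers were present, with a summed level of 857 to 921 CPM over 8 genes in d3 wildtype and 1143 to 1309 CPM in d3 Nr6a1-/- libraries. The labels do not say whether replicates were separate cultures, and p-values then measure only the spread between these samples.

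The members sit at the posterior end of each cluster, at chr6:52257694-52260880 on the minus strand for Hoxa13, and on the plus strand at chr11:96194316-96197447 for Hoxb13, chr15:102921103-102928814 for Hoxc13 and chr2:74668310-74671599 for Hoxd13 (GRCm38, GENCODE release 21). No other annotated gene overlaps any of them. Hoxb13, Hoxc13 and Hoxd13 passed the filter on low counts (more than 10 counts and 2 CPM in 2 libraries of a group). Hoxa13 did not, and is described by its counts. Hoxb13 passed through Nr6a1-/- groups only, no wildtype library holding more than 3 counts of it. Its place among the members tested therefore depends on its level in Nr6a1-/- cells.

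Of the members, 2 have an upstream sequence in the RefSeq table used here (GRCm38.p6). These are Hoxd13 and Hoxa13, which are shown for that reason and not for their levels. Hoxb13 and Hoxc13 have no entry there. The 250 bases before the RefSeq start are given 5′ to 3′ on the strand of the gene, for Hoxd13 from chr2:74667975-74668224 and for Hoxa13 from chr6:52260881-52261130, with CCAAT and the overlapping run that holds TTTAT and TATAAA in capitals.
Hoxd13: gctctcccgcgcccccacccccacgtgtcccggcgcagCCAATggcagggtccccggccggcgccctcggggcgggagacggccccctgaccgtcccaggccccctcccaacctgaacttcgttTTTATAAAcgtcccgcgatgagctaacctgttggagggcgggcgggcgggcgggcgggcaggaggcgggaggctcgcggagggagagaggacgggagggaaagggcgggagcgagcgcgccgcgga
Hoxa13: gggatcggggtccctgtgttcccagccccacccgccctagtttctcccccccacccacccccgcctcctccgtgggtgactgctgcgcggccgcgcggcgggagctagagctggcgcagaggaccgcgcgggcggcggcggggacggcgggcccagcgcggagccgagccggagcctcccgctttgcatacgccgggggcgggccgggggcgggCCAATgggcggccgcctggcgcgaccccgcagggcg

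Both sequences are rich in G and C, with 74.4% for Hoxd13 and 80% for Hoxa13 against a median of 52.4% over all promoters of that length, and they hold 31 and 35 CpG pairs. On both strands, the nuclear receptor recognition site AGGTCA had no match in either sequence, nor had its extended form TCAAGGTCA, and 14% and 0.387% of 32851 promoters hold these letters. The run in capitals of Hoxd13 holds TTTAT, the core recognised by Cdx proteins, and TATAAA, each on both strands and overlapping, 126 to 123 bases before the start. TTTAT occurs in 37.3% and TATAAA in 12.4% of promoters, and neither was found in Hoxa13. CCAAT occurs once in each sequence and in 33.8% of promoters. The short Smad site GTCT, which 82.9% of promoters hold, was present once in Hoxd13 and not in Hoxa13, and its palindrome GTCTAGAC, held by 0.167% of promoters, was in neither.

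The first question was which terminal genes differ between genotypes before Gdf11 is given. Hoxb13 alone was higher in Nr6a1-/- cells, from 12 h of Wnt activation onwards. Hoxc13 was lower in Nr6a1-/- cells at d3, and Hoxd13 and Hoxa13 stayed near the limit of detection in both genotypes until Gdf11 was added. Each comparison used the quasi-likelihood test of edgeR, adjusted over 12149 genes by the method of Benjamini and Hochberg, and genes with a false discovery rate (FDR) under 0.05 were called. None of the 3 members tested was called at d2, where 4.07% of genes were, although the unadjusted p was under 0.05 for Hoxc13 and Hoxd13. At d2.5, 1 member was called against 6.45% of genes, at d3 2 members against 10.8%, and at d4 without Gdf11 1 member against 18.9%.

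Hoxb13, which limits growth of the caudal spinal cord and tail in mice, was close to silent in wildtype cells at every stage. At d2 the wildtype libraries held 0, 1 and 0 counts, and at d2.5 again 0, 1 and 0. There was no wildtype count at d3, while d4 wildtype libraries held 2, 3 and 1 counts and d4G wildtype libraries 0, 2 and 0. Nr6a1-/- cells began in the same range, with 2, 0 and 0 counts at d2. Levels of 8.76, 5.91 and 6.03 CPM followed at d2.5. The d3 libraries reached 24.3, 25 and 26.9 CPM, and the d4 libraries 18.9, 26.9 and 18.6 CPM. From d2.5 on, every Nr6a1-/- library lay above every wildtype library of its stage. Such separation of libraries, here and below, is a description. How many of all genes separate in the same way was not counted.

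The pooled counts of Hoxb13 at d2.5 were 57 in Nr6a1-/- against 1 in wildtype cells, a ratio of 41.7 with an exact 95% counting interval of 7.19 to 1677 (log2 fold change 5.0, SE 0.71, edgeR FDR = 1.05e-05). At d3 wildtype cells had no count against 193, which puts the mutant level at least 57.7-fold higher, taking 3 wildtype counts over the group as the limit (FDR = 2.96e-12). At d4 the ratio was 33.0 (14.8 to 91.4, 144 against 6 counts; log2 fold change 4.94, SE 0.386, FDR = 4.21e-12). Such intervals cover counting error only. The fitted values move with single wildtype counts, the d2.5 value being 7.07 without d2.5 wildtype replicate 2, which held that group's only count.

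The timing within Nr6a1-/- cells was tested stage by stage. Hoxb13 rose from d2 to d2.5 by a ratio of 25.7 (6.78 to 217; log2 fold change 4.44, SE 0.608, FDR = 7.93e-07, and 7.06 without d2 Nr6a1-/- replicate 1, which held both d2 counts), and again from d2.5 to d3 by 3.72 (2.76 to 5.09; 1.88, SE 0.238, FDR = 2.67e-07). From d3 to d4 without Gdf11 the difference of -0.26 (SE 0.202, FDR = 0.396) was within the spread. In these cells 2 of 3 members were called between d2 and d2.5 (24.1% of genes), 1 between d2.5 and d3 (15.9%) and none between d3 and d4 (25.9%), where the unadjusted p was 0.0156 for Hoxd13. In wildtype cells none was called from d2 to d2.5, d2.5 to d3 or d3 to d4, where 25.4%, 11.5% and 21.1% of genes were. The wildtype steps with an unadjusted p under 0.05 were those of Hoxd13 from d2 to d2.5 and of Hoxb13 from d3 to d4, at FDR values of 0.0669 and 0.0692.

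**Figure D1:**
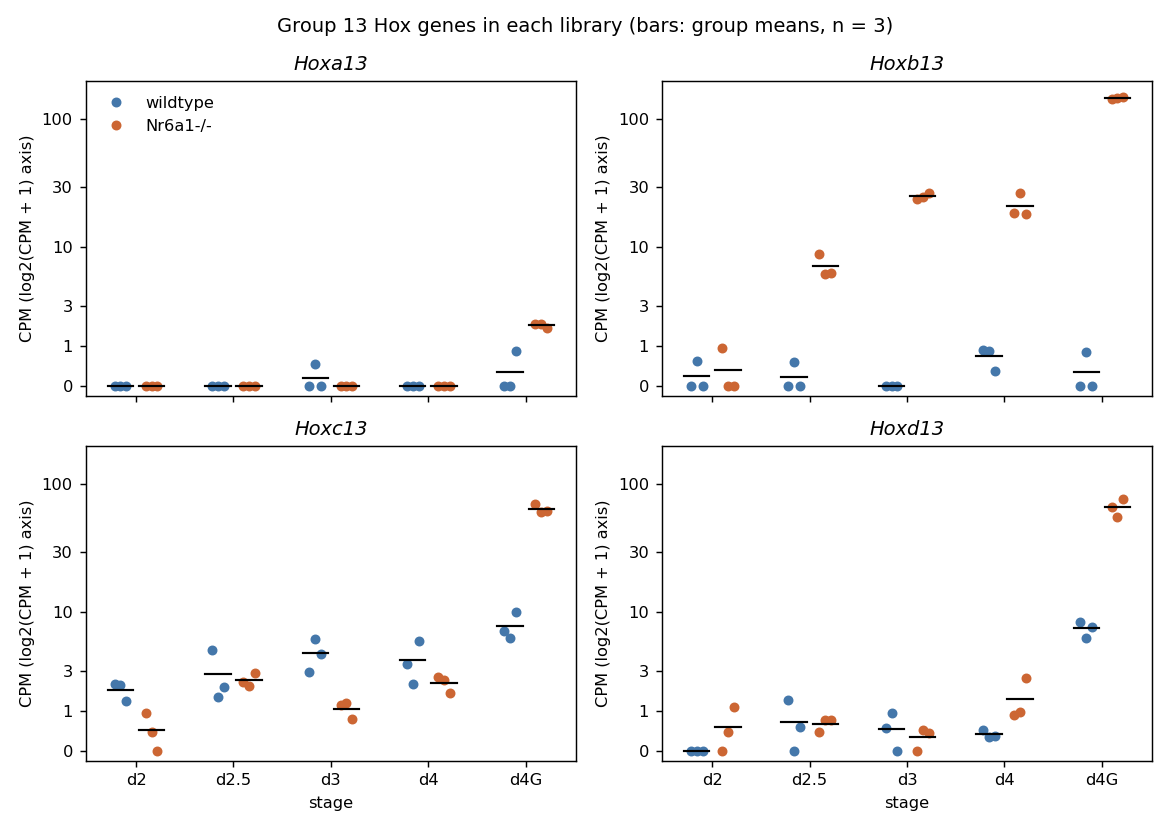
Level (CPM, TMM-scaled) of each group 13 gene (vertical axis, log2(CPM + 1) spacing) in every library at each stage, with wildtype in blue, Nr6a1-/- in orange and group means as bars (n = 3). Hoxb13 points of Nr6a1-/- cells leave the wildtype points at d2.5, whereas Hoxc13 and Hoxd13 reach 60.7 to 70.2 and 55.6 to 76.7 CPM in Nr6a1-/- cells at d4G only.

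Hoxc13, known for its role in hair and nail, was the one member with a measurable level in wildtype cells throughout. Wildtype libraries held 2.17, 2.11 and 1.37 CPM at d2, then 4.73, 1.51 and 2.01 CPM at d2.5. The d3 wildtype values were 2.87, 5.94 and 4.37 CPM, followed by 3.47, 2.20 and 5.66 CPM at d4. In Nr6a1-/- cells the d2 libraries held 0.934, 0.372 and 0 CPM and the d2.5 libraries 2.28, 2.09 and 2.84 CPM. The d3 libraries held 1.2, 1.27 and 0.738 CPM, and those of d4 2.58, 2.40 and 1.69 CPM. The Nr6a1-/- libraries lay below all wildtype libraries at d2 and d3, and the genotypes overlapped at d2.5 and d4.

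Only the d3 difference of Hoxc13 was called before Gdf11 (8 against 30 counts, ratio 0.239, 0.0948 to 0.534; log2 fold change -2.01, SE 0.512, FDR = 0.00741). That call was lost without d3 wildtype replicate 2 (-1.76, FDR = 0.0534). At d2 the value was -2.05 (SE 0.758, FDR = 0.133), at d2.5 -0.21 (SE 0.477, FDR = 0.871) and at d4 -0.75 (SE 0.438, FDR = 0.25). Within Nr6a1-/- cells Hoxc13 rose between d2 and d2.5 from 3 to 20 counts (ratio 6.0, 1.78 to 31.5; log2 fold change 2.44, SE 0.695, FDR = 0.00837), a call that was lost without d2 Nr6a1-/- replicate 3 (1.84, FDR = 0.0645) and at equal depth (2.20, FDR = 0.0521).

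Hoxd13, a regulator of digit formation that is also active in the hindgut and urogenital tract, had 0 to 3 counts in each of the 12 wildtype libraries without Gdf11. It had 0 to 6 counts in the 12 Nr6a1-/- libraries without Gdf11. At d4 the libraries did not overlap, with 2, 2 and 6 counts in Nr6a1-/- against 1, 1 and 1 in wildtype cells (ratio 4.58, 1.18 to 25.9), but the difference was not called (log2 fold change 2.03, SE 0.812, FDR = 0.0777). Hoxa13, a partner of Hoxd13 in limb and genital development, had 1 count in all 24 libraries without Gdf11, in d3 wildtype replicate 2.

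The stages d2.5, d3 and d4 also entered 1 exact permutation test for each member, 2-sided, with genotypes permuted within stages over 8000 regroupings (4 tests, raw p). The mean difference in level was 17.7 CPM for Hoxb13, with 394 against 7 counts (exact permutation p = 0.00025, the smallest p that these regroupings allow). For Hoxc13 it was -1.74 CPM, with 43 against 82 counts (exact permutation p = 0.0155, and 0.006 to 0.0398 over the alternatives). For Hoxd13 it was 0.291 CPM, with 17 against 10 counts (exact permutation p = 0.353), and for Hoxa13 -0.0508 CPM, with 0 against 1 count (exact permutation p = 1).

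**Figure D2:**
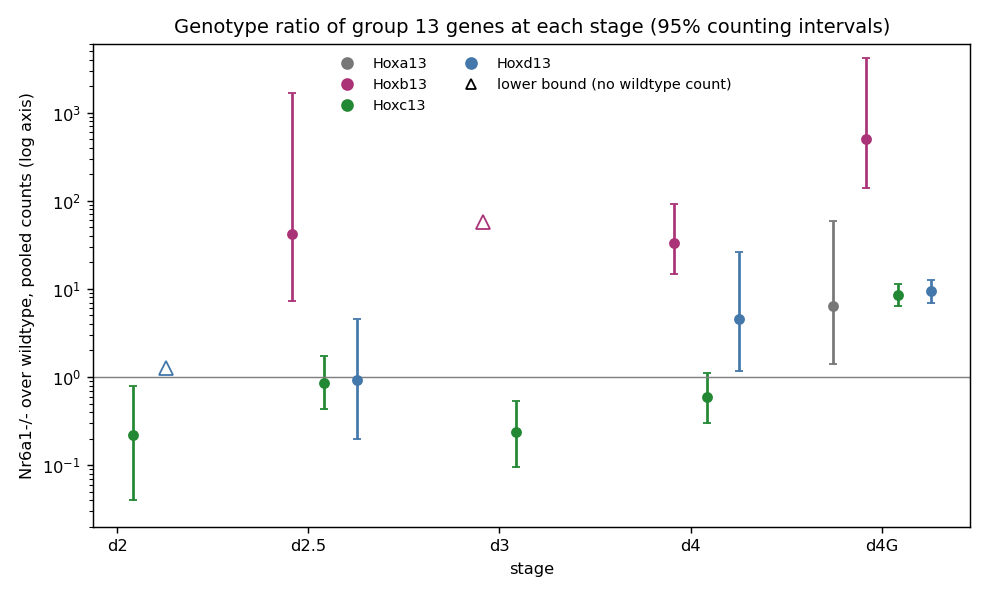
Ratio of pooled counts in Nr6a1-/- over wildtype cells (log axis, 1 marked by the line) for each group 13 gene at each stage, with exact 95% counting intervals. Open triangles are lower bounds where wildtype cells had no count, and genes with 3 or fewer counts in both groups are not drawn. Hoxb13 lies far above 1 from d2.5, Hoxc13 below 1 at d3, and all 4 genes above 1 at d4G.

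The next comparison asked how the members respond to Gdf11 in each genotype, from d4 and d4G libraries. In wildtype cells 2 of 3 members rose, Hoxd13 and Hoxc13, where 28.8% of all genes were called in either direction. In Nr6a1-/- cells all 3 rose, against 18% of all genes. The response differed between genotypes for Hoxb13 and Hoxc13, where 2.66% of genes were called in the test of that difference, and no difference was called for Hoxd13. The d4 libraries are shared by the d4 genotype comparison, the Gdf11 responses and the test of their difference, which are therefore not independent.

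Hoxd13 had 18, 15 and 18 counts in the 3 wildtype d4G libraries, or 8.32, 6.05 and 7.53 CPM. In Nr6a1-/- d4G libraries it stood at 66.9, 55.6 and 76.7 CPM. In wildtype cells this was a ratio of 22.5 to d4 (7.27 to 113, 51 against 3 counts; log2 fold change 4.29, SE 0.563, FDR = 3.81e-07), and in Nr6a1-/- cells one of 45.8 (24.7 to 96.3, 408 against 10 counts; 5.45, SE 0.324, FDR = 2.23e-15). The response in Nr6a1-/- minus that in wildtype cells was 1.16 on the log2 scale (SE 1.22, FDR = 0.735), an error too wide to show that the responses were alike. At the end point all Nr6a1-/- libraries lay above all wildtype libraries (ratio 9.35, 6.97 to 12.8; log2 fold change 3.19, SE 0.243, FDR = 4.85e-12).

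Hoxc13 stood at 6.93, 6.05 and 10.04 CPM in wildtype d4G libraries, each above the d4 wildtype libraries. The wildtype rise was small (ratio 2.04, 1.31 to 3.22, 54 against 35 counts; log2 fold change 1.02, SE 0.331, FDR = 0.0186) and was lost without d4 wildtype replicate 2 (0.69, FDR = 0.155), without d4G wildtype replicate 3 (0.78, FDR = 0.141) and with only the compared libraries in the fit (1.01, FDR = 0.0597). In Nr6a1-/- cells Hoxc13 reached 70.2, 60.7 and 62.2 CPM, a ratio of 29.1 to d4 (17.5 to 52.6, 389 against 15 counts; log2 fold change 4.83, SE 0.288, FDR = 6.98e-16). The difference between the responses was 3.81 (SE 0.494, FDR = 2.85e-06), and held in all 19 alternatives, with an FDR of 1.69e-10 to 0.000382. Hoxc13 thus had a genotype difference of -0.75 at d4, not called, and of 3.06 at d4G (SE 0.229, FDR = 1.19e-12).

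Hoxb13 had no rise with Gdf11 in wildtype cells, with 2 counts at d4G against 6 at d4 (ratio 0.441, 0.0435 to 2.47; log2 fold change -1.05, SE 1.01, FDR = 0.472). In Nr6a1-/- cells it reached 141, 144 and 147 CPM, a ratio of 6.77 to d4 (5.67 to 8.14, 868 against 144 counts; log2 fold change 2.75, SE 0.174, FDR = 1.21e-14). The test of the difference gave 3.80 (SE 1.07, FDR = 0.0448) and passed narrowly. It was lost in 9 of 19 alternatives, with an FDR of 0.0153 to 0.41 over them. These were equal depth (2.97) and leaving out d4 wildtype replicate 1 or 2, d4 Nr6a1-/- replicate 3, d4G wildtype replicate 1 or 3, or any d4G Nr6a1-/- replicate (3.29 to 3.82). Without d4G wildtype replicate 2 the value was 6.51, and its wildtype side rests on 8 counts. At d4G Hoxb13 was 507-fold higher in Nr6a1-/- cells (140 to 4193, 868 against 2 counts; log2 fold change 8.74, SE 0.343, FDR = 5.62e-20). Without d4G wildtype replicate 2, which held both wildtype counts, the fitted value was 11.44. With all libraries DESeq2 gave a wider SE of 1.03.

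Hoxa13 was seen in d4G libraries, with 4, 3 and 4 counts in Nr6a1-/- and 0, 0 and 2 counts in wildtype cells. The 11 against 2 counts give a ratio of 6.43 (exact counting interval 1.40 to 59.7). Against d4 Nr6a1-/- cells, which had no count, the level was at least 4.12-fold higher, by the same limit. At d4G all 3 members tested were called higher in Nr6a1-/- cells, where 7.9% of genes were called. Hoxb13 was among those tested only because of its level in Nr6a1-/- cells. In bulk samples a change in the number of expressing cells and a change in the RNA of each cell cannot be told apart.

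The make-up of the group 13 counts therefore differed by genotype and stage. Libraries were read from the 3′ end, so counts were not divided by gene length, and the shares are shares of counts with exact binomial 95% intervals. In wildtype cells without Gdf11, Hoxc13 held 77.3% (54.6 to 92.2) of 22 counts at d2.5, 88.2% (72.6 to 96.7) of 34 at d3 and 79.6% (64.7 to 90.2) of 44 at d4. In Nr6a1-/- cells Hoxb13 held 69.5% (58.4 to 79.2) of 82 counts, 95.1% (91.1 to 97.6) of 203 and 85.2% (78.9 to 90.2) of 169 at the same stages. With Gdf11, wildtype counts were split between Hoxc13 (49.5%, 39.8 to 59.3) and Hoxd13 (46.8%, 37.2 to 56.6) of 109. Of 1676 counts in Nr6a1-/- d4G libraries Hoxb13 held 51.8% (49.4 to 54.2), Hoxd13 24.3% (22.3 to 26.5), Hoxc13 23.2% (21.2 to 25.3) and Hoxa13 0.656% (0.328 to 1.17). The summed level of the 4 genes was 277 ± 13.4 CPM there and 15.5 ± 2.77 CPM in wildtype d4G cells.

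**Figure D3:**
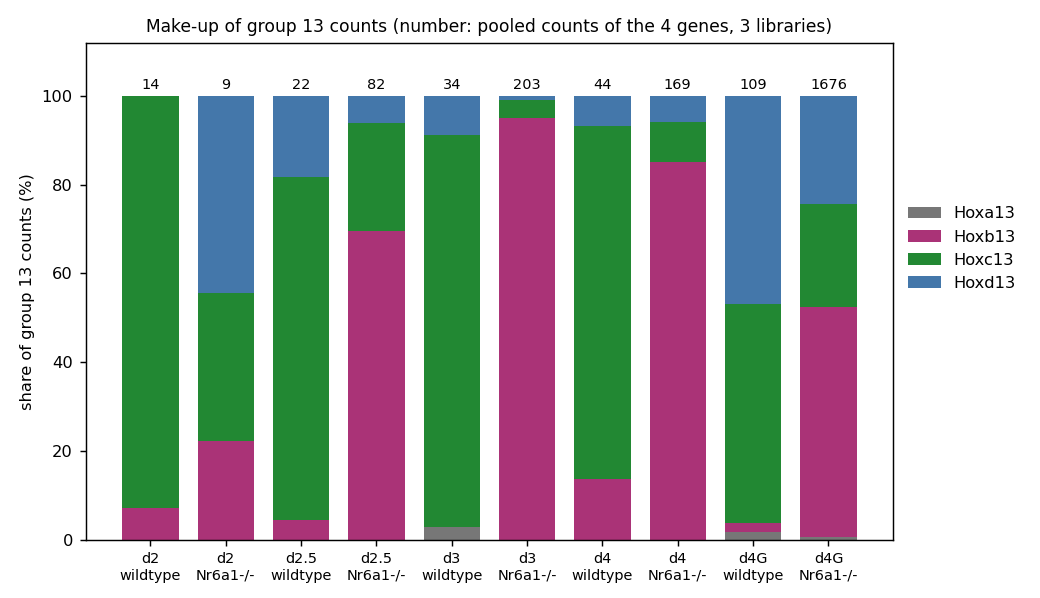
Share of the pooled counts of the 4 group 13 genes (vertical axis, %) that each gene held in each of the 10 groups, with the pooled counts of 3 libraries above each bar. Hoxc13 takes most of the wildtype bars up to d4 and Hoxb13 most of the Nr6a1-/- bars from d2.5, and the d2 bars rest on 14 and 9 counts.

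Hox genes of groups 9 to 12 were set beside the members, since they precede them in each cluster. Of 12 genes 11 were tested. Without Gdf11 none was called higher in Nr6a1-/- cells at any stage. At d2.5 2 were called lower, at d3 2 (Hoxa9 and Hoxc9) and at d4 4, all of group 9. Of all genes 6.45%, 10.8% and 18.9% were called at these stages, in either direction. Their median log2 fold change at d4 was -0.42, against 0.018 over all genes. With Gdf11, 10 of 11 rose in each genotype, with medians of 5.56 in wildtype and 5.25 in Nr6a1-/- cells. Of all genes 28.8% and 18% were called there, in either direction. Hoxb9, the next gene to Hoxb13 in its cluster, fell in wildtype cells by 0.73 on the log2 scale (FDR = 0.000158) and was not called in Nr6a1-/- cells (0.42, FDR = 0.0808).

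At d4G the genotype difference of the Hoxc and Hoxd clusters went from below 1 in group 9 to well above it in groups 12 and 13. Hoxc9 and Hoxc10 were lower in Nr6a1-/- cells, with ratios of 0.335 (0.302 to 0.371) and 0.329 (0.299 to 0.362). Hoxc11 was higher by 2.27 (1.96 to 2.63), and Hoxc13 by 8.42 (6.32 to 11.4). Hoxc12, which was below the filter, had 27 against 2 counts, a ratio of 15.8 (3.96 to 137). In the Hoxd cluster the ratios were 0.584 (0.491 to 0.693) for Hoxd9, 1.18 (1.01 to 1.39) for Hoxd10, which was not called, 1.80 (1.65 to 1.96) for Hoxd11, 7.84 (4.45 to 14.9) for Hoxd12 and 9.35 for Hoxd13. Hoxa9, Hoxa10 and Hoxa11 were not called (FDR = 0.767, 0.727 and 0.719). The rank of the ratios along a cluster is a description and was not tested.

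**Figure D4:**
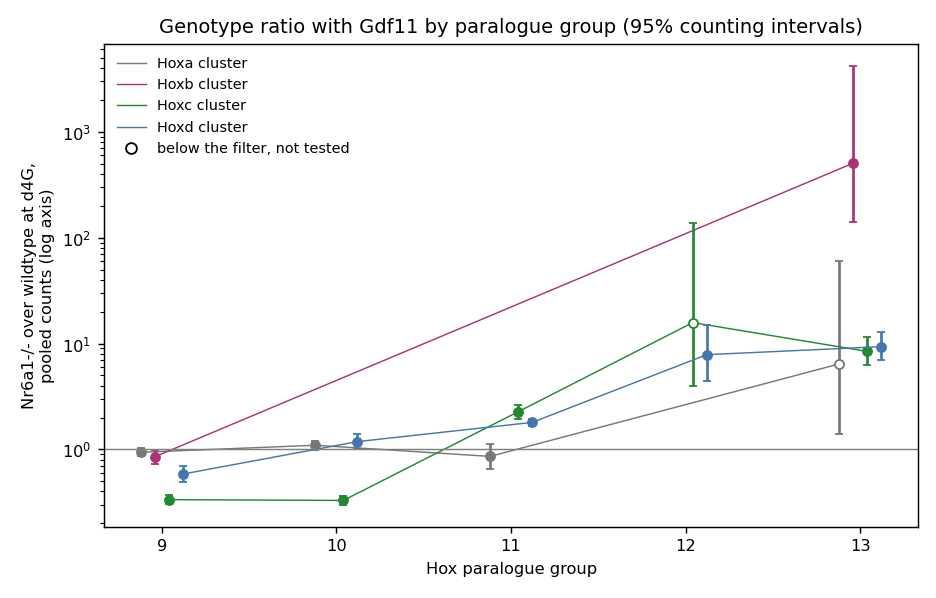
Ratio of pooled counts in Nr6a1-/- over wildtype cells at d4G (log axis) by Hox paralogue group, 1 line per cluster, with exact 95% counting intervals and open points for genes below the filter. The Hoxc and Hoxd lines go from 0.335 and 0.584 at group 9 to 8.42 and 9.35 at group 13, and the Hoxb line joins the only genes of these groups in its cluster.

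Neighbouring genes within 200 kb were examined around each member. Between genotypes, 10.8% of all genes were called at d3, 18.9% at d4 and 7.9% at d4G, in either direction. Around Hoxb13, 18 of 31 neighbours were tested. At d3, where Hoxb13 was at least 57.7-fold higher, 3 passed as higher in Nr6a1-/- cells and 1 as lower. The highest fitted value among the neighbours tested was 2.24, of Gm27605, a gene annotated as miscellaneous RNA, which was not called (FDR = 0.134). Hoxb8 (0.81, FDR = 0.00663), Hoxb7 (0.76, FDR = 0.00307) and Hoxb1 (0.69, FDR = 9.74e-06) were higher, and the antisense gene Hoxb5os was lower (-1.47, FDR = 7.37e-05). At d4, Gm27605 was higher, with 39 against 1 counts and a ratio of 53.6 (9.08 to 2172; log2 fold change 5.19, SE 0.777, FDR = 5.87e-06), beside 33.0 for Hoxb13. Gm27605 starts 5.995 kb from Hoxb13 on the other strand and had 85 counts in all libraries, and whether counting used strand is not given. Hoxb3os (0.78, FDR = 0.00377) and Hoxb1 (0.36, FDR = 0.0115) were also higher at d4, and Hoxb9, Hoxb5os (-0.81, FDR = 1.66e-05) and Hoxb6 (-0.46, FDR = 0.0156) lower. Hoxb9 was not called at d3 (0.19, FDR = 0.559) and was lower at d2.5 (-2.18, FDR = 0.0161) and d4 (-1.39, FDR = 5.9e-09). At d4G the called neighbours of Hoxb13 were Hoxb1 (0.48, FDR = 0.00083) and Gm27605 (26 against 0 counts, FDR = 0.00015).

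Around Hoxd13 the called neighbours at d4G were Hoxd12 and Hoxd11, higher in Nr6a1-/- cells, and Hoxd9, lower, of 12 tested. Lnpk, on the far side of Hoxd13 from the cluster, was not called (0.16, FDR = 0.624). Around Hoxc13, 2 of 10 were higher, Hoxc11 and the long non-coding RNA gene Hotair, and 4 were lower. Hotair was without a count at d4 in either genotype and reached 3.68 ± 0.406 CPM in wildtype d4G cells against 23.4 ± 5.47 CPM in mutant ones (log2 fold change 2.63, SE 0.33, FDR = 4.12e-06). On the far side of Hoxa13, Hottip had 2 counts in all libraries, while Evx1 was lower in Nr6a1-/- cells at d4G (-1.06, FDR = 0.000229). Of the listed genes beside the group 13 ends, 5 of 11 were tested, and 1 was called higher (Hotair) and 1 lower (Evx1) at d4G. None was called at d3 or d2.5, 1 was lower at d2 (Lnpk) and 1 at d4 (Evx1).

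**Figure D5:**
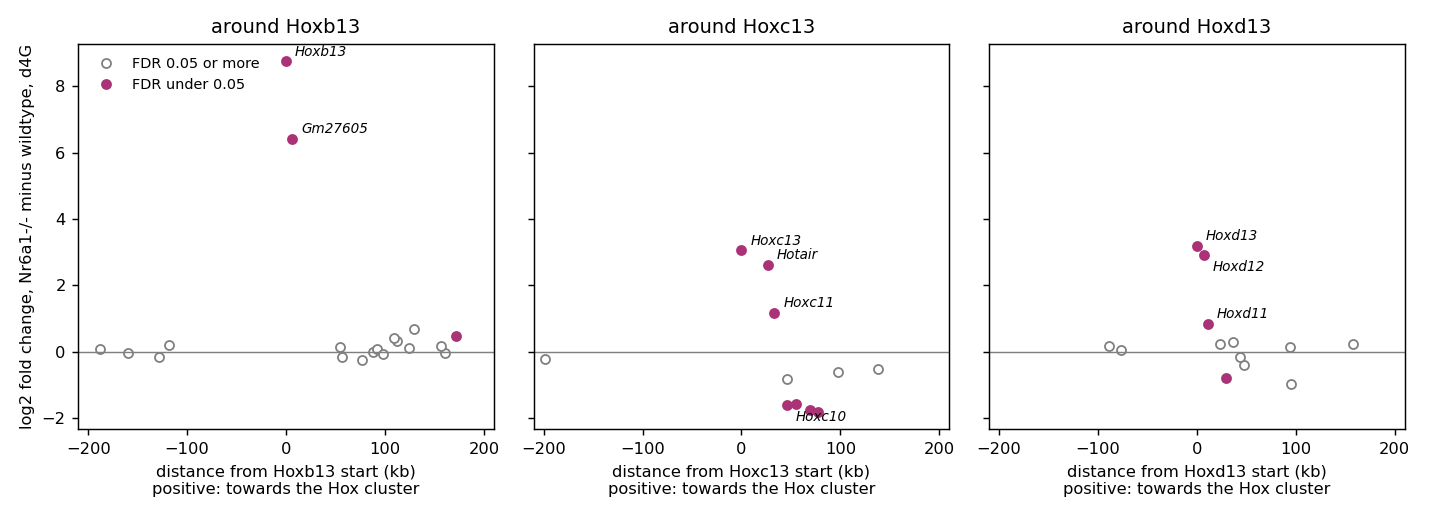
Log2 fold change of Nr6a1-/- minus wildtype at d4G (vertical axis, edgeR) against distance from the start of Hoxb13, Hoxc13 or Hoxd13 (kb, positive towards the Hox cluster) for every tested gene within 200 kb, filled where FDR was under 0.05. Around Hoxb13 the other called genes are Gm27605 and Hoxb1, and on the cluster side of Hoxc13 and Hoxd13 Hotair (26.6 kb), Hoxc11 (33.3 kb), Hoxd12 (6.70 kb) and Hoxd11 (11.2 kb) lie above 0. Fitted values of genes without a wildtype count depend on the prior count.

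The genes whose pattern was most like that of each member were ranked by Pearson r over the 10 group means of log2(CPM + 1), among 9712 genes with 10 CPM or more in a group. For Hoxd13 the first 2 were Hoxd12 (r = 0.98) and Hotair (r = 0.977), followed by Cux1, Zfp592 and Dicer1. For Hoxc13 they were Pxn (r = 0.962), Prrc1, 2410089E03Rik, Dicer1 and Slc46a1, with Hoxd13 in place 8 (r = 0.919). For Hoxb13 they were Pom121 (r = 0.939), Uqcr10, Zfp157, Rbmx and Bcl7c, while Hoxd13 (r = 0.601) and Hoxc13 (r = 0.498) ranked 611 and 1427. The size of a change does not enter r. At d4G Pom121 was at 33.5 CPM in Nr6a1-/- and 24.2 CPM in wildtype cells, and Pxn at 15.8 and 11.3 CPM. Hoxb13 was at 144 and 0.269 CPM there, and Hoxd12 at 15.4 and 2.01 CPM. Points share libraries and stages, and the values are descriptions.

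The pathway of Gdf11 itself was looked at through a list of its ligand, receptors, Smads and inhibitors, of which 10 were tested. In wildtype cells 6 rose with Gdf11 and none fell, and in Nr6a1-/- cells 2 rose and 2 fell (medians 0.47 and 0.037, against 0.02 and -0.018 over all genes). Of all genes 28.8% and 18% were called in these comparisons. Smad7, an inhibitory Smad that Gdf11 type signals induce, rose in both genotypes, from 9.89 ± 1.93 to 29.5 ± 1.02 CPM in wildtype and from 2.23 ± 0.47 to 32.9 ± 5.15 CPM in Nr6a1-/- cells, with a difference in response of 2.24 (SE 0.434, FDR = 0.00135). It was thus lower at d4 in Nr6a1-/- cells (-2.11, FDR = 7.33e-05) and not called at d4G (0.14, FDR = 0.793). Any link between the genes of this list and the levels of group 13 genes was not tested. Fst, which binds and blocks the ligand, rose from 7.28 ± 2.02 to 41.9 ± 1.18 CPM in wildtype and fell from 62.1 ± 10.7 to 32.7 ± 3.10 CPM in Nr6a1-/- cells.

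The transcript of Gdf11 was lower in Nr6a1-/- cells at d4 (70.7 ± 12.9 against 232 ± 69.7 CPM; -1.72, FDR = 3.82e-08) and not called at d4G (FDR = 0.0822). The type II receptor gene Acvr2b was higher at d2.5 (0.85, FDR = 4.99e-05) and not called at d3, d4 or d4G. No gene of the list was called between genotypes at d4G or d2. At d4 4 were higher and 2 lower, where 18.9% of all genes were called. The unadjusted p at d4G was under 0.05 for Gdf11 (log2 fold change -0.56) and Fst (-0.35).

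Genes of axial elongation were also listed, since group 13 proteins are known for slowing this process. Whether group 13 genes had a part in the changes of these genes was not tested. Of 13 tested, 1 rose and 9 fell with Gdf11 in Nr6a1-/- cells (median -0.74, 18% of all genes called). In wildtype cells 5 rose and 6 fell (median -0.27, 28.8% of all genes called). In the test of the difference, which called 2.66% of all genes, none was called higher and 7 were called lower (median -0.58, against -0.024 over all genes). Lin28a, an RNA-binding protein gene that promotes axial elongation, fell from 203 ± 13.6 to 93.5 ± 6.22 CPM in wildtype and from 260 ± 37.9 to 64.7 ± 1.49 CPM in Nr6a1-/- cells. Cdx2, a homeobox gene needed for axis extension, fell from 95.6 ± 9.85 to 44.7 ± 1.72 CPM and from 89.9 ± 6.73 to 23.0 ± 1.33 CPM. Part of this list is also in the NMP list below.

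Markers of other cell types were summed in the same libraries. Paraxial mesoderm markers, 8 genes, were at 626 to 659 CPM in d4 Nr6a1-/- against 210 to 258 CPM in d4 wildtype libraries, and at 264 to 298 against 143 to 168 CPM at d4G. Of 6 tested, 6 were higher at d4 and 3 at d4G. At d3, where Hoxb13 was already high, they were at 55.4 to 74.3 against 31.0 to 48.9 CPM, with 1 of 6 called, and at d2 they were lower in sum (29.9 to 32.0 against 52.5 to 62.2 CPM, 1 called lower). NMP markers were higher at d2.5 to d4 (3, 4 and 4 of 8 called) and at d4G 2 were higher and 4 lower.

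Gut endoderm markers, 15 genes, had a higher sum in Nr6a1-/- cells at d2 (291.0 to 293.9 against 238 to 243 CPM, with 2 called higher and 4 lower) and a lower one from d2.5 on, at 65.6 to 79.7 against 225 to 255 CPM at d4G and 145 to 164 against 348 to 372 CPM at d3, with Cer1 and Shh at 0 counts in both groups at each stage. At d4G 8 of 10 tested were called lower and none higher. Markers of allantois and extraembryonic mesoderm, 9 genes, were at 157 to 174 against 307 to 344 CPM at d4G, with 2 of 4 tested called lower, and at 83.6 to 103 against 258 to 269 CPM at d3, with 4 of 4 lower. Neural markers, 8 genes, were at 20.6 to 25.9 against 36.8 to 56.4 CPM at d4G, with 2 lower. They were at 10.8 to 18.5 against 29.2 to 30.1 CPM at d3, with 4 lower. At d4 they were at 9.47 to 16.5 against 47.7 to 64.55 CPM, with 5 lower. Pluripotency markers, 7 genes, were at 152 to 183 against 114 to 135 CPM at d4G, with 1 higher and 2 lower, but at 69.0 to 75.7 against 104 to 124 CPM at d3, with 1 higher and 5 lower, and at 26.7 to 34.7 against 60.4 to 71.9 CPM at d4, with 3 lower. At d4G fibroblast markers, 7 genes with Lum at 0 in both groups, were at 32.8 to 43.0 against 26.3 to 37.7 CPM, with 1 lower of 4, while they were at 61.0 to 74.3 against 47.0 to 54.8 CPM at d3 (1 higher, 1 lower) and 16.9 to 22.8 against 25.6 to 29.4 CPM at d4 (1 lower). The shares of all genes called that are given above for each stage apply to these counts too. The part of these shifts in the group 13 values was not tested.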

How the data were processed

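Counts of 3′-end RNAseq libraries were analysed for 30 samples in 10 groups. Per the study's methods, libraries were primed from the poly(A) tail with a molecular identifier, and the submitters' processing notes name STAR, edgeR and mm10. Versions, annotation, counter, use of strand and collapsing of identifiers are not given in the sources used here. The authors deposited raw counts, whole numbers for every gene in each library, neither normalised nor pooled. The authors' tables of differences between genotypes (CPM, fold changes and p-values) were not used. The members and gene lists were chosen with earlier results of these data known.

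With TMM factors, the counts entered 1 model of the 10 groups fitted in edgeR 4.0.16 (R 4.3.3), with 20 residual degrees of freedom, no replicate term and glmQLFTest, 2-sided. The filter kept 12149 genes (more than 10 counts and 2 CPM in 2 libraries of a group), holding 99.2% or more of the counts in every library, and dropped 41985. Hoxb13, Hoxd12 and Gm27605 passed it through Nr6a1-/- groups only. Standard errors are the log2 fold change over the square root of F, and are not reliable where a group holds few counts. That of Hoxb13 at d4G was 0.343 against 1.03 in DESeq2. For the Hoxd13 difference in response it was 1.22 against 1.03. CPM are relative to the total of all rows times the TMM factor. Ratios are of pooled counts over scaled library sizes, with Clopper-Pearson intervals. With 0 counts the bound uses 3 counts over the group, and genes at 3 or fewer counts in both groups get no fold. If identifiers were not collapsed, intervals and limits understate the error. Replicate pairs of a group differed by a chi-square per gene of 1.49 to 7.59, so no library was counted as a repeat. Positions came from GENCODE release 21 (GRCm38), and 2 of 4 members matched the RefSeq promoter table. Genes named are the members, genes of the lists, genes within 200 kb of a member and the 5 genes most like each tested member. Nr6a1 was also given as the targeted gene, and some genes that meet the rules are not reported. The fit and permutation scripts were tested on simulated data. Alternatives were RLE factors, no factors, no filter, DESeq2 1.42.0, only the compared libraries, a replicate block, each library left out, equal depth and, for the permutation test, log2(CPM + 1).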

Additional observations from a re-analysis of the deposited data

Results flagged for a closer look

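The response to Gdf11 differed between genotypes, by a test of the difference itself, for 2 group 13 genes. Hoxc13 rose more in Nr6a1-/- than in wildtype cells by 3.81 on the log2 scale (SE 0.494, edgeR FDR = 2.85e-06), and each Nr6a1-/- d4G library lay above each wildtype one. Hoxb13 gave 3.80 (SE 1.07, edgeR FDR = 0.0448), on 2 and 6 counts in wildtype d4G and d4 cells, and 8 of 12 libraries were such that leaving 1 of them out ended the call.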

How the results depend on the processing

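Of 41 results on the members, 19 passed their threshold, and 15 of these kept direction and call in every alternative run, namely the Hoxb13 differences from d2.5 to d4G, the d4G differences of Hoxc13 and Hoxd13, the Gdf11 responses other than the Hoxc13 one of wildtype cells, the difference in response of Hoxc13, both rises of Hoxb13 in Nr6a1-/- cells and the permutation results of Hoxb13 and Hoxc13. The permutation results were held to a raw p under 0.05, not corrected for the 4 tests, and all other results to an FDR under 0.05. Of the 19, the remaining 4 lost the call somewhere. The Hoxb13 difference in response was 3.29 to 6.51 with a library left out (FDR 0.0153 to 0.198) and 2.97 at equal depth (FDR = 0.41). The Hoxc13 difference at d3 was -2.23 to -1.76 (FDR 0.00591 to 0.0534), its wildtype response to Gdf11 0.69 to 1.48 (0.00397 to 0.155) and 1.01 with only the compared libraries (FDR = 0.0597), and its d2 to d2.5 rise in Nr6a1-/- cells 1.84 to 3.35 (0.00682 to 0.0645) and 2.20 at equal depth (FDR = 0.0521). With a library left out, uncalled values changed sign for Hoxc13 between genotypes at d2.5 (-0.49 to 0.44) and in the wildtype steps d2 to d2.5 (-0.05 to 0.87) and d3 to d4 (-0.68 to 0.11), and for Hoxd13 between genotypes at d2.5 (-0.65 to 1.11, and 0.29 at equal depth), in the wildtype step d2.5 to d3 (-1.39 to 0.70) and in the Nr6a1-/- step d2 to d2.5 (-0.31 to 1.31). The steps of Hoxd13 from d2 to d2.5 in wildtype (2.56 to 4.31) and from d3 to d4 in Nr6a1-/- cells (1.60 to 2.64) passed in 1 case each. The cause was not tested.

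In the genotype and Gdf11 comparisons the correlation of same-numbered deviations was weak (-0.111 to 0.163). It was above 0 throughout for Gdf11 (0.002 to 0.163), so pairing of d4 with d4G samples is not excluded. The stage steps were not examined. The fit with a replicate block changed no call, with 3.80 for the Hoxb13 difference in response (FDR = 0.0496). Over all genes, calls moved by over 1.5 times at d4 with only the compared libraries (2294 to 1398) or without Nr6a1-/- replicate 3 (1487), in the difference in response at equal depth (323 to 211), with only the compared libraries (212), without d4 Nr6a1-/- replicate 1 (823) or replicate 3 (205), at d2 without wildtype replicate 3 (494 to 306) or Nr6a1-/- replicate 1 (304) or 2 (311), at d2.5 without wildtype replicate 1 (784 to 478) or 2 (492) or Nr6a1-/- replicate 1 (495), and at d3 without wildtype replicate 3 (1308 to 871). Without factors the share of called genes that were higher moved from 49.8% to 63.2% for Gdf11 in wildtype cells (median over all genes 0.113), from 46.8% to 59.7% for Gdf11 in Nr6a1-/- cells, from 33.2% to 44.0% at d2, from 52.3% to 65.9% for the wildtype step d2 to d2.5 and from 52.4% to 40.2% for the Nr6a1-/- step d3 to d4, and without the filter from 44.4% to 58.0% at d2.5. DESeq2 gave no adjusted p for 1 value. At these depths a gene at a level under about 1 to 2 CPM could be without a count in a library, which limits Hoxa13 throughout and Hoxd13 without Gdf11.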
